A study of Mus musculus with 6 samples.

Results

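The 36 genes described here encode aminoacyl-tRNA synthetases, the enzymes that join each amino acid to its transfer RNA. They were taken by symbol from the 22482 genes of the deposited mRNA table: 20 cytosolic enzymes and 16 mitochondrial ones, whose symbols end in 2. All 36 were found, and all 36 passed the expression filter, which asked for 0.5 FPKM or more in 3 or more of the 6 libraries. The FPKM unit corrects a fragment number for the length of the transcript and the size of the library.

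RNA was measured in cultured aortic vascular smooth muscle cells of C57BL/6 mice, 48 h after adenovirus was added, and sequenced as stranded total RNA libraries depleted of ribosomal RNA. The study compared 3 libraries labelled Myocd knockdown (titled ADV) with 3 libraries labelled negative control virus (titled Ctrl), to ask what myocardin, a transcriptional coactivator of smooth muscle genes, does in these cells. Because the series text speaks of wildtype cells for the second group, it is not certain that it received virus, and without it an effect of the virus and of Myocd cannot be told apart. The labels name no separate cultures or animals, so every p-value rests on the spread between 3 libraries a group, and that spread may be technical.

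Myocd itself ran against the labels. Its level was 131.7, 130.1 and 146 FPKM in knockdown-labelled libraries, against 0.036, 0 and 0.125 FPKM in control-labelled libraries. The fitted log2 fold change was 9.87 (SE 0.27), with a limma adjusted p of 1.11e-05. An exact two-sided permutation test cannot go below the p = 0.1 it gave with 3 against 3 libraries. The groups are therefore named by their labels throughout, and no direction below is read as an effect of losing Myocd. The smooth muscle actin gene Acta2 also stood higher in knockdown-labelled libraries, at 340.2 ± 7.16 FPKM, against 67.2 ± 4.16 FPKM in control-labelled libraries (SD, n = 3 each). Of 6 smooth muscle markers tested, limma called 4 higher (Acta2, Myl9, Des and Lmod1) and edgeR called 5, while Smtn had overlapping groups. Myh11, a defining marker of mature smooth muscle, stayed under 0.5 FPKM in every library, as did 7 of 8 endothelial markers, with Emcn at 0. The summed endothelial markers reached 1.298 to 2.43 FPKM in knockdown-labelled libraries and 0.468 to 1.04 FPKM in control-labelled libraries. Of these sums Vwf alone made up 1.16, 0.963 and 1.61 FPKM with the knockdown label and 0.102, 0.146 and 0.306 FPKM with the control label. It rested on few fragments, 22, 15 and 15 against 7, 6 and 13. Vwf, the marker that could be tested, was called higher by limma and not by edgeR (adjusted p 0.0869). Fibroblast markers had 0 of 6 tested genes called by limma or edgeR (1 higher at an unadjusted p under 0.05). Macrophage markers had 0 of 3 called by limma and 0 of 2 by edgeR (1 lower at an unadjusted p under 0.05). Among all tested genes 10.2% were higher and 12.2% lower at that unadjusted threshold. Fewer cells of a type and less RNA per cell cannot be told apart in such bulk samples, and the part of cell make-up in the synthetase values was not tested. Depth was 7528152 to 9117648 fragments in knockdown-labelled libraries and 9303515 to 9793781 in control-labelled libraries. Over the whole table, limma, which fits all genes on a log scale, called 400 of 11612 tested genes (3.44%) at an adjusted p under 0.05, of which 213 were higher (1.83%) and 187 lower (1.61%) with the knockdown label. With any 1 library left out, limma called between 29 and 104 genes higher and between 13 and 88 lower.

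Each synthetase recognises 1 amino acid and the transfer RNAs that belong to it, apart from Eprs, a fused enzyme for glutamate and proline. The charged transfer RNA is what the ribosome reads. Mammalian cells keep separate nuclear genes for most cytosolic and mitochondrial enzymes, while Gars and Kars each encode both forms. Several cytosolic enzymes sit together in a multisynthetase complex held by scaffold proteins. When an amino acid runs short, uncharged transfer RNA activates the kinase GCN2, and the transcription factor ATF4 then raises many cytosolic synthetase genes together with genes of amino acid synthesis and uptake. Mitochondrial synthetases serve the small set of respiratory chain proteins that mitochondrial DNA encodes.

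In these cells the 36 genes separated by compartment in their level. The median level over all 6 libraries was 56.7 FPKM for the cytosolic genes and 5.21 FPKM for the mitochondrial genes, a ratio of 10.9. Among cytosolic genes the level ran from Farsa, the catalytic subunit of the phenylalanine enzyme, at 17.2 FPKM, to Sars, the serine enzyme, at 131.1 FPKM. Among mitochondrial genes it ran from Ears2, the glutamate enzyme, at 1.63 FPKM, to Lars2, the leucine enzyme, at 44.2 FPKM. Lars2 and Iars2, the isoleucine enzyme, were the 2 mitochondrial genes above the lowest cytosolic level, and 11 of 16 mitochondrial genes averaged under 10 FPKM. The median coefficient of variation between libraries of a group was 4.78% for cytosolic genes and 13.7% for mitochondrial genes, so small differences were harder to see among mitochondrial genes.

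**Figure D1:**
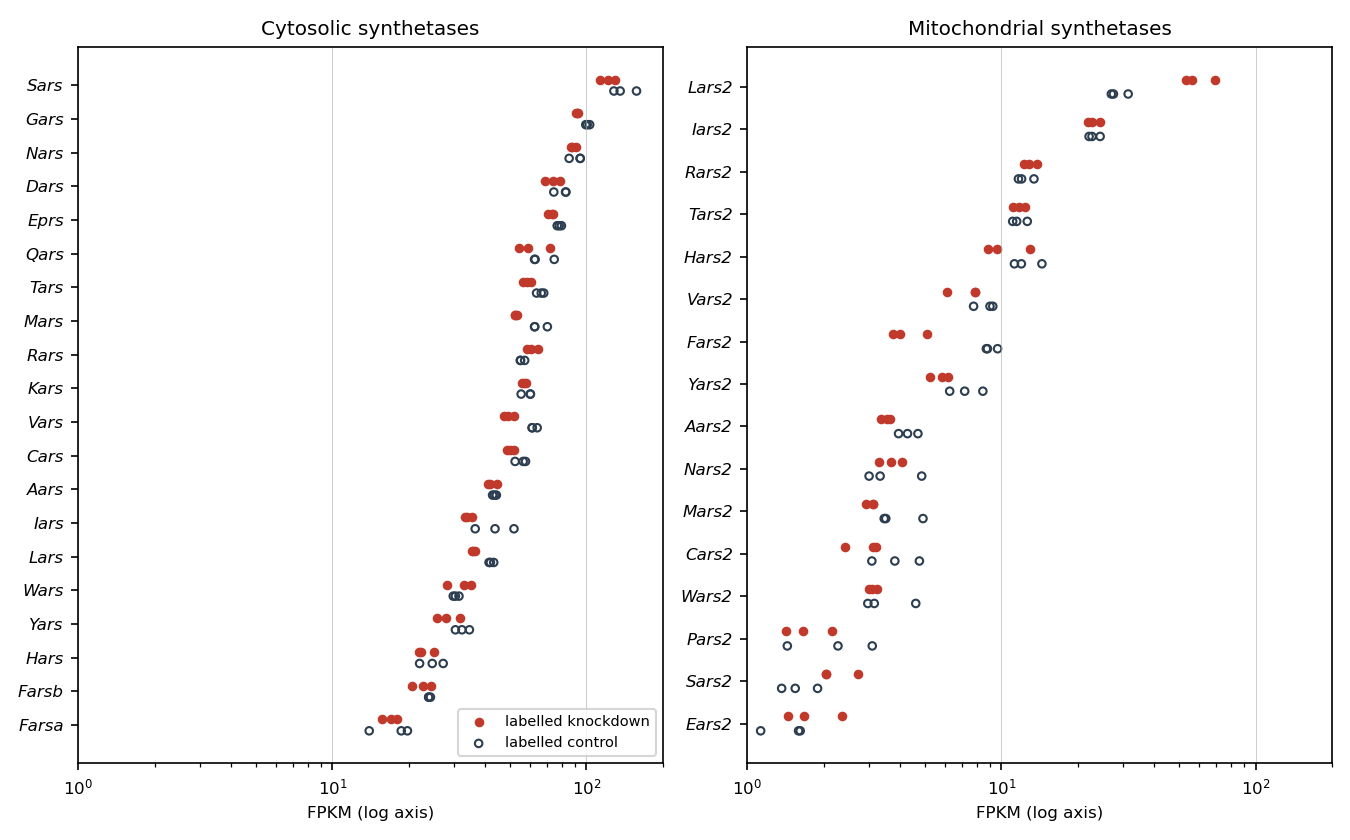
FPKM of each synthetase gene in each library (log axis), cytosolic genes on the left and mitochondrial genes on the right, ordered by mean level. Filled points are the 3 libraries labelled knockdown and open points the 3 libraries labelled control. Cytosolic genes centre on 56.7 FPKM and mitochondrial genes on 5.21 FPKM, with Lars2 and Fars2 showing the widest gaps between the groups.

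Of the 20 cytosolic genes, 3 were called lower in knockdown-labelled libraries (Vars, Mars and Lars), 0 were called higher and 17 did not pass the test. Among all tested genes 1.61% were called lower. At an unadjusted p under 0.05, 9 cytosolic genes stood lower and 1 higher, against 12.2% and 10.2% of all tested genes. The log2 fold change, libraries labelled knockdown minus libraries labelled control, was negative for 18 of 20 cytosolic genes, against 52.2% of all tested genes. The median was -0.12, against -0.01 for all tested genes. The summed cytosolic level was 1063, 1085 and 1076 FPKM in knockdown-labelled libraries and 1154, 1191 and 1194 FPKM in control-labelled libraries, and the groups did not overlap. On average the sum was 1075 ± 11.02 FPKM with the knockdown label and 1180 ± 22.2 FPKM with the control label (SD, n = 3 each), a difference of -8.92%.

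Vars encodes the cytosolic valine enzyme (mm10, chromosome 17, 35000907 to 35016329). Its level was 47.2, 51.9 and 49.3 FPKM in knockdown-labelled libraries, against 61.1, 61.2 and 64.0 FPKM in control-labelled libraries. All 3 libraries labelled knockdown stood below all 3 labelled control. The log2 fold change was -0.33 (SE 0.05), with a limma adjusted p of 0.0241. On recovered fragments, edgeR gave -0.29 with an adjusted p of 0.000495.

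Mars encodes the cytosolic methionine enzyme, a member of the multisynthetase complex (mm10, chromosome 10, 127296221 to 127311786). Its level was 52.2, 53.1 and 52.3 FPKM in knockdown-labelled libraries, against 62.6, 62.5 and 70.2 FPKM in control-labelled libraries. The groups did not overlap, and the libraries labelled knockdown lay within 1 FPKM of each other. The log2 fold change was -0.31 (SE 0.06), with a limma adjusted p of 0.0371, and edgeR gave -0.28 with an adjusted p of 0.00167. Mars overlaps Ddit3 (Chop), a stress transcription factor, in the RefSeq annotation of GRCm38, and whether counting used strand is not given in the sources used here. Ddit3 stood at 36.01, 35.5 and 36.3 FPKM in knockdown-labelled libraries and 33.4, 36.7 and 35.0 FPKM in control-labelled libraries, with a log2 fold change of 0.04 (SE 0.05).

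Lars encodes the cytosolic leucine enzyme, which also senses leucine for the mTORC1 pathway (mm10, chromosome 18, 42202298 to 42262237). Its level was 36.4, 35.5 and 35.7 FPKM in knockdown-labelled libraries, against 41.9, 43.2 and 41.4 FPKM in control-labelled libraries. The groups did not overlap. The log2 fold change was -0.23 (SE 0.05), with a limma adjusted p of 0.0422, and edgeR gave -0.22 with an adjusted p of 0.00608. Lars overlaps the pseudogene Rps19-ps4.

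These 3 calls were sensitive to the number of libraries. With any 1 of the 6 libraries left out, limma called 0 cytosolic genes lower, with adjusted p of 0.0602 to 0.0860 for Vars, 0.0593 to 0.111 for Mars and 0.0807 to 0.133 for Lars. In the same 6 subsets edgeR called all 3 genes each time. Their fold changes kept their sign in all 27 alternatives, between -0.36 and -0.28 for Vars, -0.33 and -0.25 for Mars, and -0.25 and -0.21 for Lars.

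Several other cytosolic genes did not overlap between the groups without passing the limma test. Gars, the glycine enzyme, stood at 91.3, 92.7 and 91.6 FPKM in knockdown-labelled libraries, against 101, 103 and 99.4 FPKM in control-labelled libraries. Its log2 fold change was -0.14 (SE 0.04), with a limma adjusted p of 0.0900 and an edgeR adjusted p of 0.0430. Tars, the threonine enzyme, stood at 58.5, 56.5 and 60.3 FPKM with the knockdown label and 66.4, 67.9 and 63.6 FPKM with the control label, with a log2 fold change of -0.18 (SE 0.05) and a limma adjusted p of 0.0909. In all, 8 cytosolic genes lay wholly lower (Cars, Eprs, Gars, Iars, Lars, Mars, Tars and Vars) and 1 wholly higher (Rars), against 15.6% and 13.3% of all tested genes.

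Iars, the isoleucine enzyme, had the most negative fitted value of the cytosolic genes, -0.35 (SE 0.12), and did not pass, with a limma adjusted p of 0.147. Its level was 35.5, 33.8 and 33.4 FPKM in knockdown-labelled libraries, against 36.5, 51.9 and 43.7 FPKM in control-labelled libraries, so the spread lay in the controls. On fragments the log2 fold change was -0.13, with an edgeR adjusted p of 0.130. Rars, the arginine enzyme, stood at 60.6, 58.5 and 64.7 FPKM with the knockdown label and 54.9, 57.1 and 55.1 FPKM with the control label, with a log2 fold change of 0.14 (SE 0.05) and a limma adjusted p of 0.180. Wars, the tryptophan enzyme, was the other gene with a positive value, 0.06 (SE 0.08), and its groups overlapped.

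**Figure D2:**
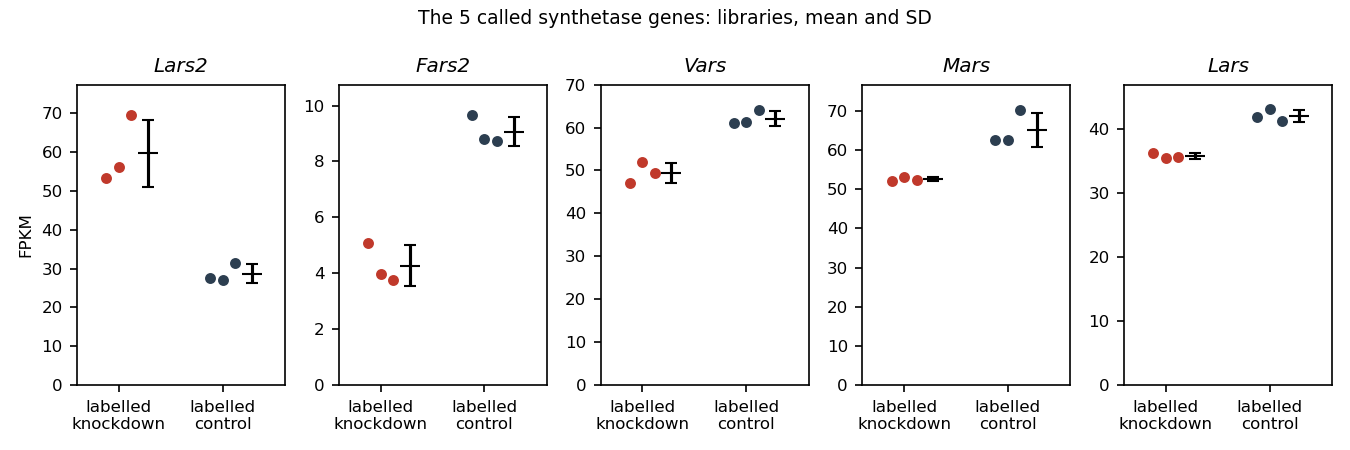
FPKM of the 5 synthetase genes called by limma, in the 3 libraries labelled knockdown (left of each panel) and the 3 labelled control (right), with mean and SD beside the points. Lars2 lies higher and Fars2, Vars, Mars and Lars lie lower in knockdown-labelled libraries, and the groups overlap in none of the 5 panels.

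The remaining cytosolic genes were not called by limma either. Yars, the tyrosine enzyme, had a log2 fold change of -0.19 (SE 0.09) with a limma adjusted p of 0.261, while edgeR gave -0.29 with an adjusted p of 0.0194. Sars stood at 113, 122 and 130.0 FPKM in knockdown-labelled libraries, against 136, 128 and 157 FPKM in control-labelled libraries, and the groups overlapped. Cars, the cysteine enzyme, and Eprs, the fused glutamate and proline enzyme, had log2 fold changes of -0.14 (SE 0.05) and -0.11 (SE 0.04). The groups of both did not overlap. Their limma adjusted p were 0.182 and 0.192, and their edgeR adjusted p 0.0424 and 0.0932. Qars, the glutamine enzyme, Dars, the aspartate enzyme, and Farsb and Farsa, the phenylalanine subunits, lay between -0.12 and -0.03. Hars, the histidine enzyme, Nars, the asparagine enzyme, Kars, the lysine enzyme, and Aars, the alanine enzyme, lay between -0.09 and -0.04.

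Under the count tools more cytosolic genes passed. On the fragments recovered from the deposited counts, edgeR called 7 of 20 lower (Cars, Gars, Lars, Mars, Tars, Vars and Yars), against 4.5% of all genes it tested, and 0 higher, against 5.45%. The edgeR values were negative for 18 of 20, against 49.5% of all genes, with a median of -0.09. DESeq2 called 4 lower (Lars, Mars, Vars and Yars), against 3.38% of all genes it tested, and 0 higher, against 4.15%. Vars, Mars and Lars were called by limma, edgeR and DESeq2.

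The cytosolic enzymes were also described by structure and by complex. Class I enzymes, whose catalytic domain is a Rossmann fold, had 3 of 9 genes called lower by limma, against 1.61% of all tested genes, 5 of 9 called lower by edgeR, against 4.5%, and a median of -0.19. Class II enzymes, built on another fold, had 0 of 10 called with limma and 2 called lower by edgeR. At an unadjusted limma p under 0.05, 5 of the 9 class I genes stood lower and 1 higher. Of the 10 class II genes 3 stood lower and 0 higher at that threshold. Among all tested genes 12.2% were lower and 10.2% higher. The class II median was -0.09, and all 10 fitted values were negative. All 3 called genes belong to subclass Ia, which charges aliphatic and sulphur-containing amino acids and arginine, a grouping chosen after the values were seen. That subclass had a median of -0.27 over 6 genes, against -0.10 over the other 14. Of the 8 enzymes of the multisynthetase complex 2 were called lower by limma (Lars and Mars), with a median of -0.12. Of the 12 outside it 1 was (Vars), with a median of -0.11, against 1.61% called lower among all tested genes. With edgeR the counts were 2 of 8 in the complex and 5 of 12 outside it, against 4.5% of all genes it tested. The difference between these subgroups was not tested.

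The scaffold proteins of the complex, Aimp1, Aimp2 and Eef1e1, had 0 of 3 genes called by limma or edgeR, 0 at an unadjusted p under 0.05, and overlapping groups in each case. Aimp1 stood at 25.9, 27.2 and 31.9 FPKM in knockdown-labelled libraries and 27.8, 31.2 and 31.7 FPKM in control-labelled libraries. Aimp2 had a log2 fold change of -0.16 (SE 0.16) and Eef1e1 of 0.01 (SE 0.12). The cytosolic elongation factors, which carry charged transfer RNA to the ribosome and move it on, had 0 of 6 genes called by limma. They had 0 at an unadjusted p under 0.05 and a median of 0.03. Of the 6, 3 lay wholly higher in knockdown-labelled libraries and 0 wholly lower, against 13.3% and 15.6% of all tested genes. With edgeR 2 of them were called higher, against 5.45% of all genes it tested.

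Among the 16 mitochondrial genes, 1 was called higher (Lars2) and 1 lower (Fars2), and both had a log2 fold change of at least 1 in size, as did 1.77% of all tested genes. Among all tested genes 1.83% were called higher and 1.61% lower. The other 14 did not pass the test. Fitted values spread more widely than among the cytosolic genes, with an SD over genes of 0.46 against 0.12. Without Lars2 and Fars2 the mitochondrial SD was 0.26, and the median SE of a gene was 0.15 for mitochondrial and 0.06 for cytosolic genes. Of the 16 genes, 10 had a negative log2 fold change, against 52.2% of all tested genes.

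Lars2 encodes the mitochondrial leucine enzyme (mm10, chromosome 9, 123366927 to 123462675). Its level was 53.3, 56.3 and 69.5 FPKM in knockdown-labelled libraries, against 27.6, 27.1 and 31.5 FPKM in control-labelled libraries. Every library labelled knockdown stood above every library labelled control, with means of 59.7 ± 8.63 FPKM (knockdown label) and 28.7 ± 2.44 FPKM (control label, SD, n = 3 each) and a ratio of 2.08. The log2 fold change was 1.05 (SE 0.11), with a limma adjusted p of 0.00859, which ranked 92 among upward fold changes of all tested genes. It passed in all 27 alternatives, with adjusted p of at most 0.0487. Lars2 overlaps the lncRNA gene Gm46137. The ribosomal RNA precursor Rn45s, an index of how much ribosomal RNA was left in a library, stood at 8319, 8137 and 7295 FPKM in knockdown-labelled libraries, against 10522, 10410 and 8909 FPKM in control-labelled libraries. Its log2 fold change was -0.33 (SE 0.11), with a limma adjusted p of 0.227, and its part in the Lars2 value was not tested.

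Fars2 encodes the mitochondrial phenylalanine enzyme (mm10, chromosome 13, 36117428 to 36537595). Its level was 5.10, 3.98 and 3.75 FPKM in knockdown-labelled libraries, against 9.65, 8.81 and 8.72 FPKM in control-labelled libraries. The groups did not overlap, with means of 4.27 ± 0.722 FPKM (knockdown label) and 9.06 ± 0.516 FPKM (control label, SD, n = 3 each). The log2 fold change was -1.08 (SE 0.13), with a limma adjusted p of 0.0122, and edgeR gave -1.04 with an adjusted p of 0.000466. Under limma the call was lost without knockdown-labelled replicate 2 (adjusted p = 0.0588), without control replicate 1 (0.0624) or without control replicate 2 (0.0584), while edgeR kept it in all 6 subsets. Fars2 overlaps the lncRNA gene Gm40912.

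The summed mitochondrial level was 153, 154 and 165 FPKM in knockdown-labelled libraries, against 139.6, 136 and 139 FPKM in control-labelled libraries. The order turned round without the 2 called genes. Without Lars2 and Fars2 the sum was 94.4, 93.8 and 91.7 FPKM in knockdown-labelled libraries and 102, 100.1 and 98.9 FPKM in control-labelled libraries, a mean difference of -7.12%.

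Other mitochondrial genes did not pass the limma test. Sars2, the serine enzyme, stood at 2.04, 2.73 and 2.05 FPKM in knockdown-labelled libraries, against 1.89, 1.36 and 1.54 FPKM in control-labelled libraries. Its groups did not overlap, and its log2 fold change of 0.48 (SE 0.21) had a limma adjusted p of 0.222. Aars2, Mars2 and Yars2, for alanine, methionine and tyrosine, lay wholly lower in knockdown-labelled libraries, with log2 fold changes of -0.28, -0.34 and -0.33 and limma adjusted p of 0.228, 0.273 and 0.199. Vars2, the valine enzyme, had a log2 fold change of -0.26 (SE 0.13) and a limma adjusted p of 0.292, and edgeR called it lower with -0.35 and an adjusted p of 0.0413.

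The groups of the other mitochondrial genes overlapped. Cars2, Pars2, Hars2 and Wars2, for cysteine, proline, histidine and tryptophan, had log2 fold changes of -0.39, -0.32, -0.27 and -0.17, with SE of 0.16 to 0.30. Ears2 had 0.30 (SE 0.25). Iars2, Tars2, Nars2 and Rars2, for isoleucine, threonine, asparagine and arginine, lay between -0.01 and 0.07. Hars (36766528 to 36783205) and Hars2 (36783202 to 36792562) lie on opposite strands of chromosome 18 and overlap only at their edges. Whether they share fragments was not tested. In all, 4 mitochondrial genes lay wholly lower (Aars2, Fars2, Mars2 and Yars2) and 2 wholly higher (Lars2 and Sars2), against 15.6% and 13.3% of all tested genes.

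**Figure D3:**
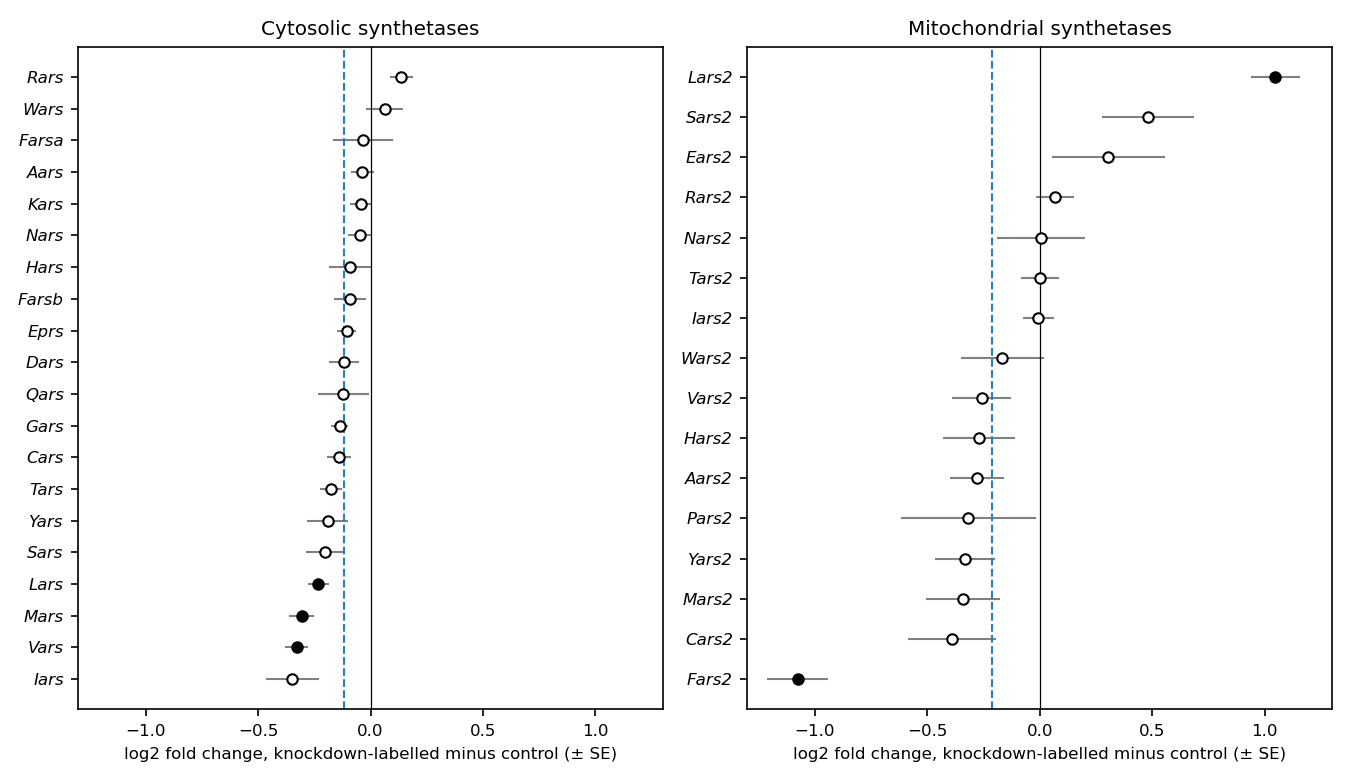
Fitted log2 fold change (libraries labelled knockdown minus libraries labelled control) with SE for each synthetase gene, cytosolic genes left and mitochondrial genes right. Filled points passed the limma test at an adjusted p under 0.05 and dashed lines mark the medians, -0.12 for cytosolic and -0.21 for mitochondrial genes. Cytosolic values cluster just below 0, while mitochondrial values spread from -1.08 to 1.05.

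The median log2 fold change of the mitochondrial genes was -0.21 on FPKM, below the cytosolic median by 0.09. This order did not hold in every fit. On fragments edgeR gave a mitochondrial median of -0.05 and a cytosolic median of -0.09, so that the difference, cytosolic minus mitochondrial, was 0.09 on FPKM and -0.04 on fragments. On FPKM it lay between 0.02 and 0.06 with any 1 library left out. It was -0.03 on FPKM without both replicate 3 libraries. This difference was not tested, since genes are not replicates of a compartment.

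Enzymes for the same amino acid were set side by side in 17 pairs, Eprs with both Ears2 and Pars2, and Fars2 with both phenylalanine subunits. Both enzymes had negative values in 10 pairs (Iars2, at -0.01, was positive with quantile normalization or median centring). The cytosolic enzyme alone was negative in 5 pairs. Among these, Nars2 and Tars2 lay near 0, at 0.007 (SE 0.20) and 0.002 (SE 0.08), and Nars2 was negative with DESeq2. The cytosolic enzyme was positive in 2 pairs, with both positive in 1 of these (Rars and Rars2). In 16 of 17 pairs the cytosolic gene stood higher than its mitochondrial partner in every library. The exception was leucine. The log2 ratio of Lars to Lars2 was -0.55, -0.66 and -0.96 in knockdown-labelled libraries, against 0.60, 0.67 and 0.39 in control-labelled libraries, so Lars2 exceeded Lars in knockdown-labelled libraries and lay below it in control-labelled libraries.

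The ratio did not overlap between groups in 5 pairs, of which 2 share Fars2. For the levels of single genes, 13.3% of all tested genes lay wholly higher and 15.6% wholly lower. It was higher in knockdown-labelled libraries for Aars to Aars2 (by 0.24 on the log2 scale), Farsa to Fars2 (by 1.04) and Farsb to Fars2 (by 0.98). It was lower there for Lars to Lars2, with a difference of -1.28, and for Sars to Sars2, with a difference of -0.69. For phenylalanine the cytosolic subunits themselves lay at -0.03 (SE 0.13) for Farsa and -0.09 (SE 0.07) for Farsb, against -1.08 for Fars2. No test of these ratios was run beyond the fits of the genes themselves.

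**Figure D4:**
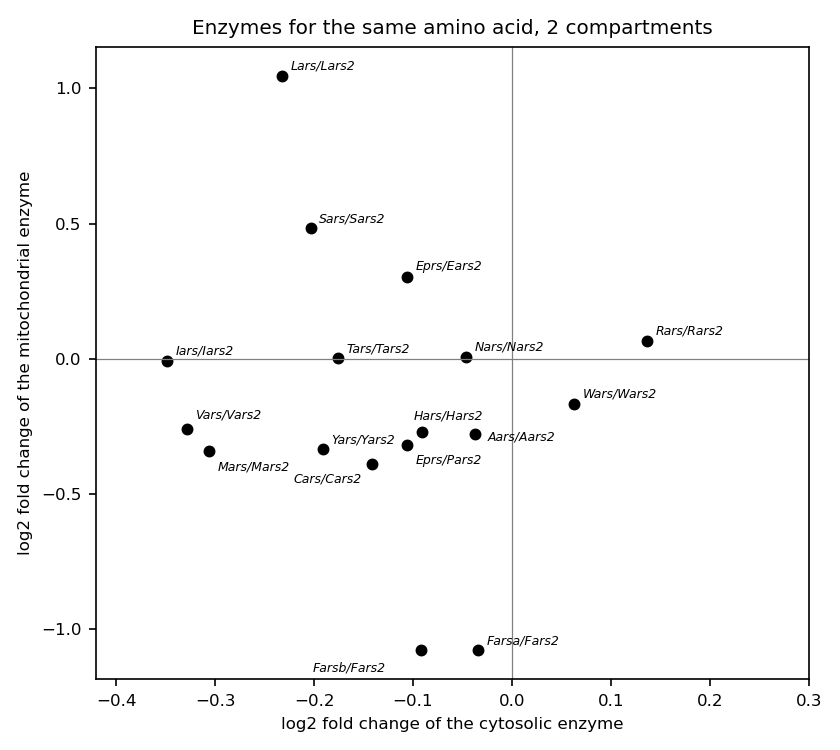
Fitted log2 fold change of the mitochondrial enzyme (vertical axis) against that of the cytosolic enzyme for the same amino acid (horizontal axis), 1 point per pair, libraries labelled knockdown minus libraries labelled control. The leucine pair lies highest, with -0.23 for Lars and 1.05 for Lars2, and the phenylalanine pairs lie lowest, with -1.08 for Fars2.

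Other genes of aminoacylation were listed as context: enzymes that correct, modify or transfer amino acids on transfer RNA, and synthetase genes outside the rule. Of 13 listed, 12 were tested and 0 were called by limma or edgeR. At an unadjusted limma p under 0.05, 4 stood lower, against 12.2% of all tested genes. The genes for mitochondrial translation factors had 0 of 9 tested genes called by limma or edgeR, with 1 lower at an unadjusted p under 0.05 and a median of -0.06. On fragments their edgeR median was 0.02. Tufm, the mitochondrial elongation factor Tu, stood at 43.5, 44.4 and 48.0 FPKM in knockdown-labelled libraries and 43.0, 44.6 and 48.0 FPKM in control-labelled libraries, a gene named after its values were seen.

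ATF4 activates many cytosolic synthetase genes, so the 12 cytosolic members often listed as its targets were described apart. Of these, 2 were called lower by limma (Lars and Mars), against 1.61% of all tested genes, 11 had negative values and the median was -0.16. The other 8 cytosolic genes had 1 called lower (Vars) and a median of -0.09. On fragments edgeR called 6 of the 12 lower, with a median of -0.13, and 1 of the other 8, with a median of -0.06, against 4.5% of all genes it tested. The difference between these groups was not tested.

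Promoter sequence was read from the RefSeq table of GRCm38.p6, from 250 bases before to 50 after a transcript start the table gives for each gene, which held 27 of the 36 genes: 13 cytosolic and 14 mitochondrial. Cars, Hars, Lars, Nars, Rars, Vars, Wars, Hars2 and Pars2 had no entry. The composite element of ATF4 and C/EBP factors was searched on both strands as TGATGNAA, of which TTGCATCA (reverse complement TGATGCAA) is a subset. It was found in 5 of 13 cytosolic genes (38.5%), in 0 of 14 mitochondrial genes, and in 1304 of the 32851 promoters of the table (3.97%). The stricter TTGCATCA was found in 4 of 13 cytosolic genes (30.8%) and in 294 of all promoters (0.895%). For each of these 5 genes 1 window with TGATGNAA is shown, which need not be its only match, 5′ to 3′ on the strand of the gene, with the element in capitals, because these mark which synthetase promoters of this set hold the letters.
Aars, chr8:111033840-111033869 (+ strand): agcgggtcactTTTCATCAgagcgctctga
Gars, chr6:55037960-55037989 (+ strand): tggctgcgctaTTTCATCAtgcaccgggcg
Iars, chr13:49682126-49682155 (+ strand): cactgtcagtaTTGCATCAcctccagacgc
Tars, chr15:11399655-11399684 (- strand): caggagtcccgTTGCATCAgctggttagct
Yars, chr4:129189895-129189924 (+ strand): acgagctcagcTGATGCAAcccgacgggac

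Counted from that start site, the elements shown lay at 10 in Aars, -30 in Gars, 8 in Iars, -15 in Tars and 4 in Yars (first base in each case). These 5 genes had fitted log2 fold changes of -0.04 for Aars, -0.14 for Gars, -0.35 for Iars, -0.18 for Tars and -0.19 for Yars. Limma called 0 of them, with 3 lower at an unadjusted p under 0.05, against 12.2% of all tested genes. With edgeR Gars, Tars and Yars were called lower, against 4.5% of all genes it tested. Mars was the called cytosolic gene with an entry, and these letters were not in its window. A match is a description of the sequence and not of binding.

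A list of 33 ATF4 and amino acid stress genes was examined beside the synthetases. In the libraries labelled knockdown limma called 3 of them lower and 1 higher, against 1.61% and 1.83% of all tested genes, and 24 of 33 had negative values with a median of -0.16. Trib3, a pseudokinase that ATF4 induces, stood at 18.2, 17.04 and 17.7 FPKM in knockdown-labelled libraries, against 24.7, 25.3 and 24.4 FPKM in control-labelled libraries. Its log2 fold change was -0.49 (SE 0.06), with a limma adjusted p of 0.0101. Psat1 and Shmt2, enzymes of serine and glycine synthesis, were lower by smaller amounts, at -0.19 (SE 0.04, limma adjusted p 0.0422) and -0.22 (SE 0.05, limma adjusted p 0.0473). Nupr1, a stress-induced chromatin protein, was higher, with 0.35 (SE 0.06) and a limma adjusted p of 0.0321.

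Asns, asparagine synthetase, stood at 132, 126 and 127 FPKM in knockdown-labelled libraries and 156, 169.96 and 145 FPKM in control-labelled libraries. Its groups did not overlap. It just missed the limma threshold (-0.29, SE 0.06, adjusted p 0.0552), while edgeR called it lower with -0.25 and an adjusted p of 0.00542. Chac1, a glutathione-degrading enzyme, had -0.23 (SE 0.06, limma adjusted p 0.0893). Atf4 itself stood at 131, 125 and 129.9 FPKM in knockdown-labelled libraries and 129.6, 133 and 135 FPKM in control-labelled libraries, with a log2 fold change of -0.05 (SE 0.04, limma adjusted p 0.526). In all, 18 of the 33 genes lay wholly lower and 3 wholly higher, against 15.6% and 13.3% of all tested genes. With edgeR 13 were called lower and 2 higher, against 4.5% and 5.45% of all genes it tested. The kinases of the eIF2 alpha pathway and their partners had 0 of 7 genes called by limma. At an unadjusted limma p under 0.05, 1 stood lower, against 12.2% of all tested genes. With edgeR 1 was called lower, against the same 4.5%.

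**Figure D5:**
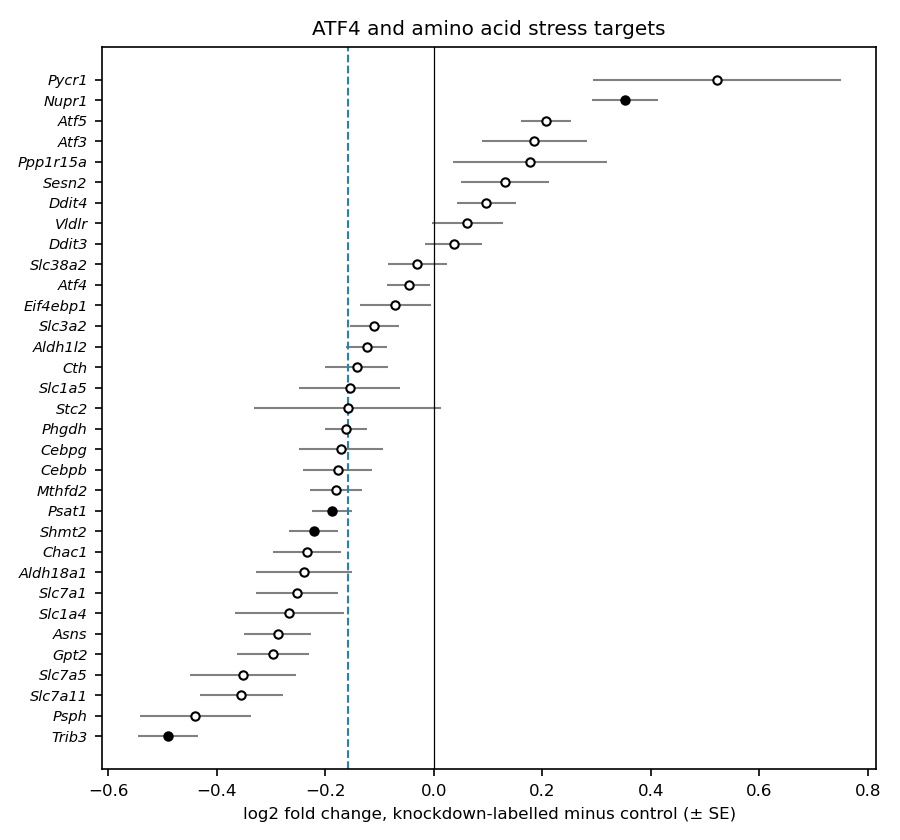
Fitted log2 fold change with SE of 33 ATF4 and amino acid stress genes, libraries labelled knockdown minus libraries labelled control. Filled points passed the limma test and the dashed line is the median, -0.16. Trib3, Psat1 and Shmt2 passed as lower and Nupr1 as higher, with Atf4 at -0.05.

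The lncRNA table named 16 transcripts beside 12 of the synthetase genes, as antisense, bidirectional, intronic or sense-overlapping neighbours. Of these, 3 were expressed at 0.1 FPKM or more in at least 3 libraries. At an adjusted p under 0.05 limma called 0 of them, against 4.26% of 4955 tested lncRNA transcripts. At an unadjusted p under 0.05 the count was also 0 of 3. The transcript that shares exons with Cars2 had 2.28, 2.35 and 1.47 FPKM in knockdown-labelled libraries and 3.18, 2.28 and 1.57 FPKM in control-labelled libraries, with overlapping groups. The transcript running bidirectionally from Mars was listed above 0.01 FPKM in 3 libraries, and 4 of the 16 were at 0 in every library.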

How the data were processed

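Per the submitters' processing notes, the tools were cutadapt, Cufflinks, Cuffdiff 2.2.1 and HISAT2 2.0.4, and mm10 and mm9 are named without roles. Per the file headers, the authors deposited FPKM and count columns per library. The deposited estimated counts were mostly whole multiples of 1 constant per library (0.915872 to 1.197773). Divided by it, 90.1% to 90.4% of mRNA values and 70.3% to 71.7% of lncRNA values lay within 0.01 of a whole fragment, and the others were fractional. Rows sharing 1 of 79 symbols were summed. Gene coordinates are those of RefSeq on GRCm38 (mm10). The tables' starts plus 1 equal the RefSeq starts for 6261 genes, against 472 without the shift.

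Genes were tested with limma 3.58.1 (R 4.3.3, intensity trend) on log2(FPKM + 0.1), which understates changes of low genes, with group as the only term. The two-sided p-values were adjusted (Benjamini-Hochberg, threshold 0.05) over 11612 genes and, apart, over 4955 lncRNA transcripts. The alternatives, edgeR 4.0.16 (quasi-likelihood, TMM) and DESeq2 1.42.0, used fragments rounded to whole numbers, because the deposited counts are scaled. Other pseudocounts, filters, scalings, limma options and left-out libraries were also tried. Replicates of a group differed by more than sampling noise (chi-square per gene 2.40 to 5.85). The tests were first tried on simulated data, with 1 scatter setting for all genes and larger changes than those of Vars, Mars and Lars. That trial does not show how well changes of their size are found.

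The members, gene lists and motif were chosen with earlier results of these data known. The rule for named genes was all members, Myocd, up to 4 called genes of smallest p per list, and a fixed set (Aimp1, Aimp2, Eef1e1, Atf4, Ddit3, Asns, Trib3, Chac1, Psat1 and 1 gene that is not reported here). Acta2, Myh11 and Rn45s serve as checks.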

Additional observations from a re-analysis of the deposited data

How the results depend on the processing

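Lars2 passed in all 27 alternatives, Fars2 in 23, Vars in 19, and Mars and Lars in 17 each. The counts of all genes higher and lower were 77 and 67 without the trend, 48 and 28 without both replicate 3 libraries, 630 and 520 with edgeR, 614 and 554 with edgeR and no filter, 805 and 703 with edgeR without both replicate 3 libraries, and 395 and 322 with DESeq2. With library weights 317 were lower. With 1 library left out they ran from 29 to 590 higher and from 13 to 495 lower. Cytosolic genes lower numbered 0 without the trend and without both replicate 3 libraries, 7 with edgeR, 6 with edgeR and no filter, 8 with edgeR without both replicate 3 libraries, and 0 to 7 with 1 library left out. Mitochondrial genes lower numbered 0 without both replicate 3 libraries, 2 with edgeR with or without the filter, and 0 to 1 with 1 library left out.

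Whether equal replicate numbers pair the libraries could not be settled from 3 libraries a group. Deviations of same-numbered libraries correlated at 0.0375, -0.0039 and 0.0999 for numbers 1, 2 and 3. The replicate 3 libraries correlated best with each other, while knockdown-labelled replicates 1 and 2 did not correlate best with their own number. With the replicate block, 100 genes were lower, and 1 cytosolic gene was, Vars. The cytosolic median was -0.0953 with median centring, -0.0949 with edgeR, -0.0981 with edgeR and no filter, -0.0968 with DESeq2, and -0.1502 to -0.087 with 1 library left out. The mitochondrial median was -0.1395 with library weights, -0.101 without both replicate 3 libraries, -0.0507 with edgeR, -0.0538 with edgeR and no filter, -0.0527 with DESeq2, -0.0497 with edgeR without both replicate 3 libraries, and -0.1802 to -0.012 with 1 library left out. The difference between them was 0.0233, -0.0301, -0.0442, -0.0444, -0.0441 and -0.0551 under those settings, and -0.0844 to 0.0587 with 1 library left out. The cause was not tested.

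No gene that changed sign was called by limma with all libraries. Iars2 was at 0.0057 with quantile normalization and 0.0178 with median centring. Nars2 was at -0.0724 with library weights, -0.1982 without both replicate 3 libraries and -0.0013 with DESeq2. Rars2 was at -0.0064 with edgeR without both replicate 3 libraries. With 1 library left out, values ran from -0.1864 to 0.0799 for Farsa, -0.1698 to 0.0009 for Hars, -0.0013 to 0.15 for Wars, -0.4319 to 0.0127 for Hars2, -0.0522 to 0.0353 for Iars2, -0.152 to 0.2067 for Nars2, -0.5988 to 0.0154 for Pars2, -0.038 to 0.0664 for Tars2 and -0.2812 to 0.0324 for Wars2. The mitochondrial genes, lower in level, had the wider spread between libraries.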

Other observations

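The mitochondrial synthetases serve the mRNAs that mitochondrial DNA encodes, and these were looked at after the values of the synthetases were seen. Of 13 such genes 12 were tested and 3 were called higher in knockdown-labelled libraries by limma, against 1.83% of all tested genes: mt-Nd2 (0.27, SE 0.03, adjusted p 0.0106), mt-Nd1 (0.36, SE 0.07, adjusted p 0.0382) and mt-Cytb (0.16, SE 0.03, adjusted p 0.0483). mt-Nd1, which encodes a core subunit of complex I, stood at 858, 867 and 779.6 FPKM in knockdown-labelled libraries and 627, 710.3 and 621 FPKM in control-labelled libraries. Several others varied between libraries of a group by far more than these genes did. mt-Co2 stood at 47.6, 3154 and 3145 FPKM in knockdown-labelled libraries and 2351, 1139 and 2160 FPKM in control-labelled libraries, so no comparison is drawn from it.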
